A study of Homo sapiens with 6 samples.

Results

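The 9 genes described here encode ATP-binding cassette (ABC) transporters that carry drugs, conjugates or porphyrins across membranes: ABCB1, ABCC1, ABCC2, ABCC3, ABCC4, ABCC5, ABCG2, ABCB6 and ABCB10. They were taken by name from the 22376 genes that the arrays measured with a single gene symbol. All 9 were measured, each by 1 transcript cluster, the array's unit of a gene. Expression was profiled on 6 Affymetrix arrays, 3 with total RNA of Δα-Cat cells and 3 with that of α-Cat cells. Both are subclones of the human colorectal adenocarcinoma line DLD-1, kept for 96 h without treatment in a 3D gel of type I collagen (1 mg/ml). The labels spell out neither name and do not say how the subclones were made or how many clones each stands for. Whether replicates are separate cultures is not stated either, and p-values then cover only the scatter among the arrays, part of which may be technical.

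ABC transporters bind and split ATP and use that energy to move a substrate across a membrane. In the gut lining, ABCB1 (P-glycoprotein), ABCG2 (breast cancer resistance protein) and ABCC2 sit at the luminal face and return drugs and conjugates to the lumen, while ABCC1 and ABCC3 lie on the basolateral face. In tumour cells the same pumps lower the amount of cytotoxic drug that stays inside. ABCB6 and ABCB10 are half-transporters, which work as dimers, and are linked to porphyrin and heme handling; ABCB10 lies in the inner mitochondrial membrane.

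CTNNA1, the αE-catenin gene, was used as a check of the labels: its RMA log2 level was 6.55, 6.52 and 6.41 on the Δα-Cat arrays, against 7.79, 7.68 and 7.71 on the α-Cat arrays. It fell in Δα-Cat cells (log2 difference -1.23, SE 0.06, limma adjusted p = 0.00212). All log2 levels are the deposited values, and differences are Δα-Cat minus α-Cat. All 12 measured colorectal epithelial markers, among them EPCAM and CDX2, lay above 4.45 in both groups. That value is the 95th percentile of 358 olfactory receptor genes and serves as a reference for a dim signal, not as a detection call. Of the markers of other cells, 4 of 10 for fibroblasts, 5 of 10 for leukocytes and 5 of 9 for endothelium lay above it in both groups, and none of these passed the test between groups. Of all 22376 genes, 14755 lay above it in Δα-Cat and 14733 in α-Cat.

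ABCB1 was the member that fell in Δα-Cat cells. Its transcript cluster is drawn from a gene with separate annotated starts, of which the windows before the upstream and the downstream start are shown because ABCB1 alone of the 9 passed the test. Both come from RefSeq on GRCh38.p14, minus strand, and hold the 250 bases before the start, 5′ to 3′. Capitals mark the letters of the CCAAT box on either strand. The downstream window is chr7:87600885-87601134 and the upstream window chr7:87713296-87713545.
ABCB1 downstream start: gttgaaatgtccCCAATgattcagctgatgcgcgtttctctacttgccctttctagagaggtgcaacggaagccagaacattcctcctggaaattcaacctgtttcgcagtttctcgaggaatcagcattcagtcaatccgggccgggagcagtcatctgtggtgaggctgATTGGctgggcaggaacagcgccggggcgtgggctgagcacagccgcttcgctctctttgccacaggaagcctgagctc
ABCB1 upstream start: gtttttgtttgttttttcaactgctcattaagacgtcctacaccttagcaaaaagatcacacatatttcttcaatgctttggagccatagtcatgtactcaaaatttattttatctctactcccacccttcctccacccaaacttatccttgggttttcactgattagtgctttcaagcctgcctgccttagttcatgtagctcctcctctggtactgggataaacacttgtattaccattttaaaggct

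The downstream window held CCAAT letters at 238 bases before the start and, on the opposite strand, at 79 bases before it, and the upstream window held none. Of 35116 RefSeq windows of the same length, 32% hold these letters on either strand. Neither ABCB1 window held the GC box letters GGGCGG, which 42.6% of windows hold. The core of the xenobiotic response element, GCGTG, stood once in the downstream window, at 53 bases before the start, and 32.2% of windows hold it. The antioxidant response element core TGACNNNGC was in neither, and 10.9% of windows hold it. The bases were 55.6% G or C in the downstream window and 39.2% in the upstream one. Among the 12 windows of the 7 members that the table covers, CCAAT letters were also found before ABCB6 and GGGCGG before ABCC5, ABCG2, ABCB6 and ABCB10. GCGTG was also found before ABCC4, ABCG2 and ABCB10, so 6 of the 12 windows held it with ABCB1 counted. TGACNNNGC was found before ABCC4 and ABCB6. ABCC1 and ABCC3 had no entry. A match is a description of letters, and the array value does not tell the starts of ABCB1 apart.

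ABCB1, the broad-range efflux pump known for multidrug resistance, read 4.32, 4.17 and 4.07 on the Δα-Cat arrays and 5.11, 4.82 and 4.93 on the α-Cat arrays. The groups did not overlap: the highest Δα-Cat array lay 0.50 below the lowest α-Cat array, while arrays of one group spanned at most 0.29. The level averaged 4.19 ± 0.13 in Δα-Cat and 4.95 ± 0.14 in α-Cat (SD, n = 3 each), a 1.70-fold lower value in Δα-Cat. The log2 difference was -0.77 (SE 0.10, 95% interval -1.0 to -0.54), with an adjusted p of 0.0409 from limma over all 65526 clusters. Over all genes, 0.626% were called in either direction, 0.371% higher and 0.255% lower; ABCB1 made 1 of 9 members called, and it was among the reasons these genes were chosen, so nothing is read from that share. Changes at least as large as that of ABCB1 were seen in 0.429% of genes. Fewer cells with ABCB1 transcript and less transcript per cell cannot be told apart in RNA of whole cultures.

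The ABCB1 call rested on all 6 arrays. When any 1 array was left out, the difference stayed between -0.83 and -0.69, but the adjusted p rose above 0.05. It was 0.0621 without Δα-Cat replicate 1, 0.187 without Δα-Cat replicate 2 and 0.146 without Δα-Cat replicate 3. It was 0.145 without α-Cat replicate 1, 0.0919 without α-Cat replicate 2 and 0.169 without α-Cat replicate 3. A two-sided exact permutation test of ABCB1 gave p = 0.1, the smallest that 3 arrays against 3 can give. The Δα-Cat mean lay below 4.45 and the α-Cat mean above it, so the Δα-Cat level was not shown to exceed a dim signal and the fold is that of the deposited values.

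**Figure D1:**
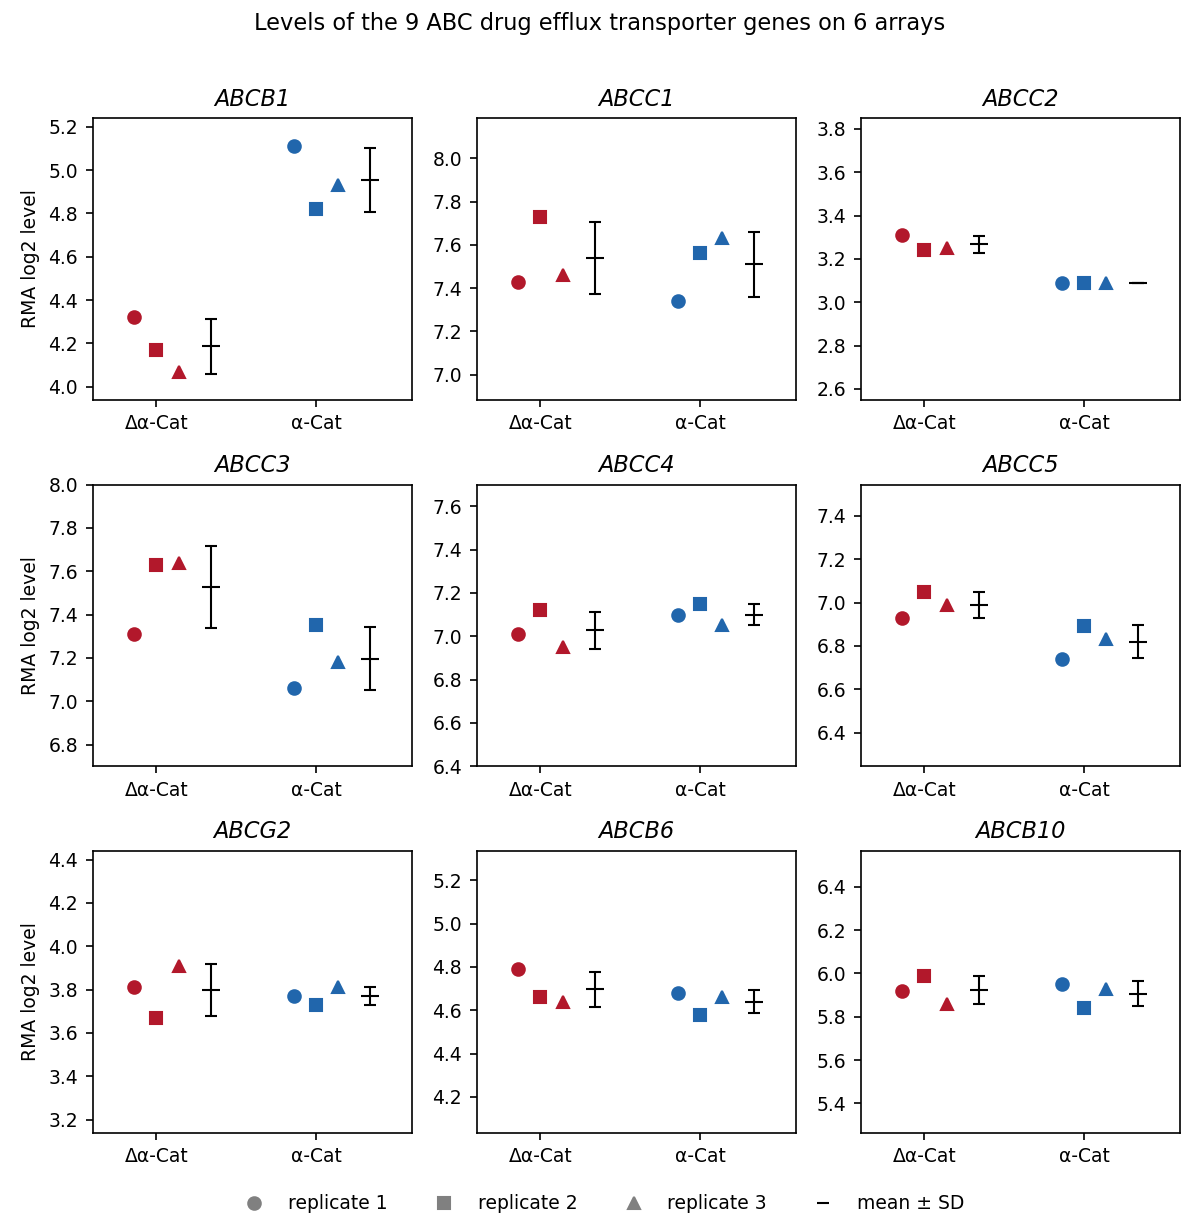
RMA log2 level (vertical axis, 1.3 log2 units in every panel) of the 9 transporter genes on the Δα-Cat (red) and α-Cat (blue) arrays, with replicates 1 to 3 as circle, square and triangle and the mean ± SD in black. The ABCB1 groups lie apart by 0.50, whereas 6 of the 9 genes have overlapping groups.

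**Figure D2:**
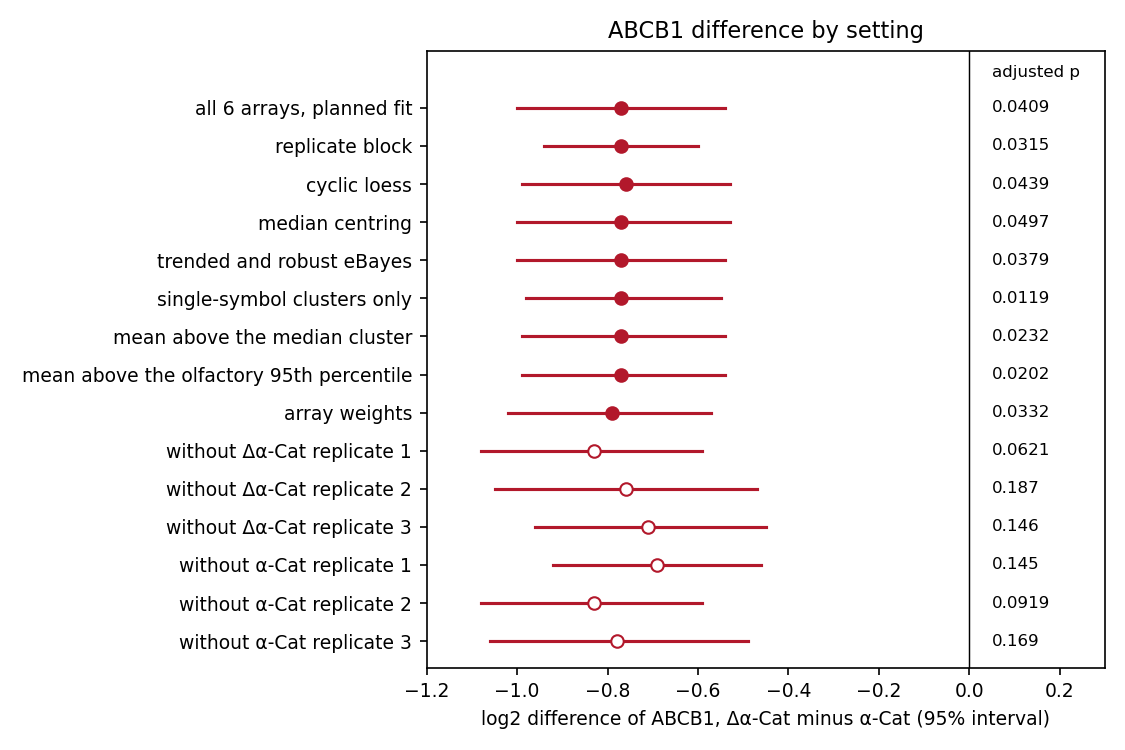
Log2 difference of ABCB1, Δα-Cat minus α-Cat (horizontal axis), with its 95% interval under the planned fit, 8 other settings and 6 fits without 1 array; filled points have an adjusted p under 0.05, printed at the right. The difference stays between -0.83 and -0.69, and the adjusted p is above 0.05 in each fit without an array; ABCB1 passes the olfactory filter only through its α-Cat arrays.

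The other pumps of the luminal face gave no call. ABCC2, which exports glutathione and glucuronide conjugates, read 3.31, 3.24 and 3.25 on the Δα-Cat arrays and 3.09 on each of the 3 α-Cat arrays. Every Δα-Cat array was higher, and the groups lay 0.15 apart. The mean was 3.27 ± 0.035 in Δα-Cat and 3.09 ± 0.0030 in α-Cat (SD, n = 3 each), with a log2 difference of 0.18 (SE 0.05, 95% interval 0.06 to 0.30, limma adjusted p = 0.286). Both means lie below 4.45, so a level above a dim signal was shown in neither group.

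ABCG2, whose protein exports a wide range of drugs and urate, read 3.81, 3.67 and 3.91 on the Δα-Cat arrays and 3.77, 3.73 and 3.81 on the α-Cat arrays. The α-Cat values all fell within the Δα-Cat range, and both means lie below 4.45. The log2 difference was 0.03 (SE 0.07, limma adjusted p = 0.959). Its 95% interval ran from -0.14 to 0.20, or 0.905-fold to 1.15-fold.

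ABCC3 had the largest positive difference of the 9 members, without passing the test. This basolateral exporter of glucuronides and bile acids read 7.31, 7.63 and 7.64 on the Δα-Cat arrays and 7.06, 7.35 and 7.18 on the α-Cat arrays. The groups overlapped by 0.04, since Δα-Cat replicate 1 lay below α-Cat replicate 2. The mean was 7.52 ± 0.19 in Δα-Cat and 7.20 ± 0.14 in α-Cat (SD, n = 3 each). The log2 difference of 0.33 (SE 0.11, 95% interval 0.06 to 0.59) did not pass (limma adjusted p = 0.403). Arrays of the same replicate number differed by 0.25, 0.28 and 0.46, and with the number as a block the adjusted p was 0.177.

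ABCC1, which exports glutathione conjugates and leukotriene C4, read 7.43, 7.73 and 7.46 on the Δα-Cat arrays and 7.34, 7.56 and 7.63 on the α-Cat arrays. The ranges overlapped over most of their length. The log2 difference was 0.03 (SE 0.11, limma adjusted p = 0.969), with a 95% interval from -0.22 to 0.29, so changes of up to 1.22-fold higher or to 0.856-fold lie inside it. Its sign turned without Δα-Cat replicate 2 (-0.06) and without α-Cat replicate 1 (-0.05).

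The exporters of cyclic nucleotides and nucleotide analogues gave no call. ABCC5 read 6.93, 7.05 and 6.99 on the Δα-Cat arrays and 6.74, 6.89 and 6.83 on the α-Cat arrays. Every Δα-Cat array was higher, by a gap of 0.04, and the log2 difference was 0.17 (SE 0.06, 95% interval 0.02 to 0.32, limma adjusted p = 0.446). ABCC4, which also carries prostaglandins, read 7.01, 7.12 and 6.95 on the Δα-Cat arrays and 7.10, 7.15 and 7.05 on the α-Cat arrays. These ranges overlapped, with a log2 difference of -0.07 (SE 0.06, 95% interval -0.22 to 0.08, limma adjusted p = 0.82).

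The porphyrin and heme transporters gave no call either. ABCB6 read 4.79, 4.66 and 4.64 on the Δα-Cat arrays and 4.68, 4.58 and 4.66 on the α-Cat arrays. Both means lay only little above 4.45, the reference for a dim signal. The ranges overlapped, with a log2 difference of 0.06 (SE 0.06, 95% interval -0.09 to 0.21, limma adjusted p = 0.862). ABCB10 read 5.92, 5.99 and 5.86 on the Δα-Cat arrays and 5.95, 5.84 and 5.93 on the α-Cat arrays. The difference of 0.02 (SE 0.06, 95% interval -0.13 to 0.16, limma adjusted p = 0.974) was smaller than the range of either group, 0.13 in Δα-Cat and 0.11 in α-Cat.

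Over the 9 members, 1 fell, 0 rose and 8 did not pass. The log2 difference was positive in 7 and negative in 2, with a median of 0.031, against a median of -0.00045 over all genes. Groups did not overlap for ABCB1, ABCC2 and ABCC5, 2 higher and 1 lower, where 21.3% of all genes have groups that do not overlap (11.3% higher and 10% lower). At an unadjusted p under 0.05, 3 members were higher (ABCC2, ABCC3 and ABCC5) and ABCB1 was lower; 13.1% of all genes met that mark.

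The rest of the ABC superfamily gave no call. Of 39 other ABC genes listed, 36 were measured, and 0 were called by limma at the adjusted threshold, also in the fit over single-symbol clusters only. At an unadjusted p under 0.05, a mark that 13.1% of all genes met, 1 was higher and 1 lower. Their log2 differences ran from -0.30 to 0.18 with a median of -0.0079, positive in 13 and negative in 23. ABCD3, a peroxisomal transporter of fatty acyl-CoA, read 7.15, 7.01 and 6.95 on the Δα-Cat arrays and 7.54, 7.15 and 7.32 on the α-Cat arrays (log2 difference -0.30, SE 0.11, limma adjusted p = 0.412). ABCA12, a lipid transporter of skin, read 2.76, 2.78 and 2.59 on the Δα-Cat arrays and 2.50, 2.56 and 2.53 on the α-Cat arrays (log2 difference 0.18, SE 0.07, limma adjusted p = 0.455), in the dim range throughout. CFTR, the chloride channel of the family, had a log2 difference of -0.19 (95% interval -0.52 to 0.14), the widest interval among these 36. A second CFTR cluster, below 4.45 in both groups, had a log2 difference of -0.26 (limma adjusted p = 0.512). The 5 other ABCC genes, CFTR not counted among them, lay between -0.02 and 0.02 and the 4 other ABCG genes between -0.06 and 0.07.

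**Figure D3:**
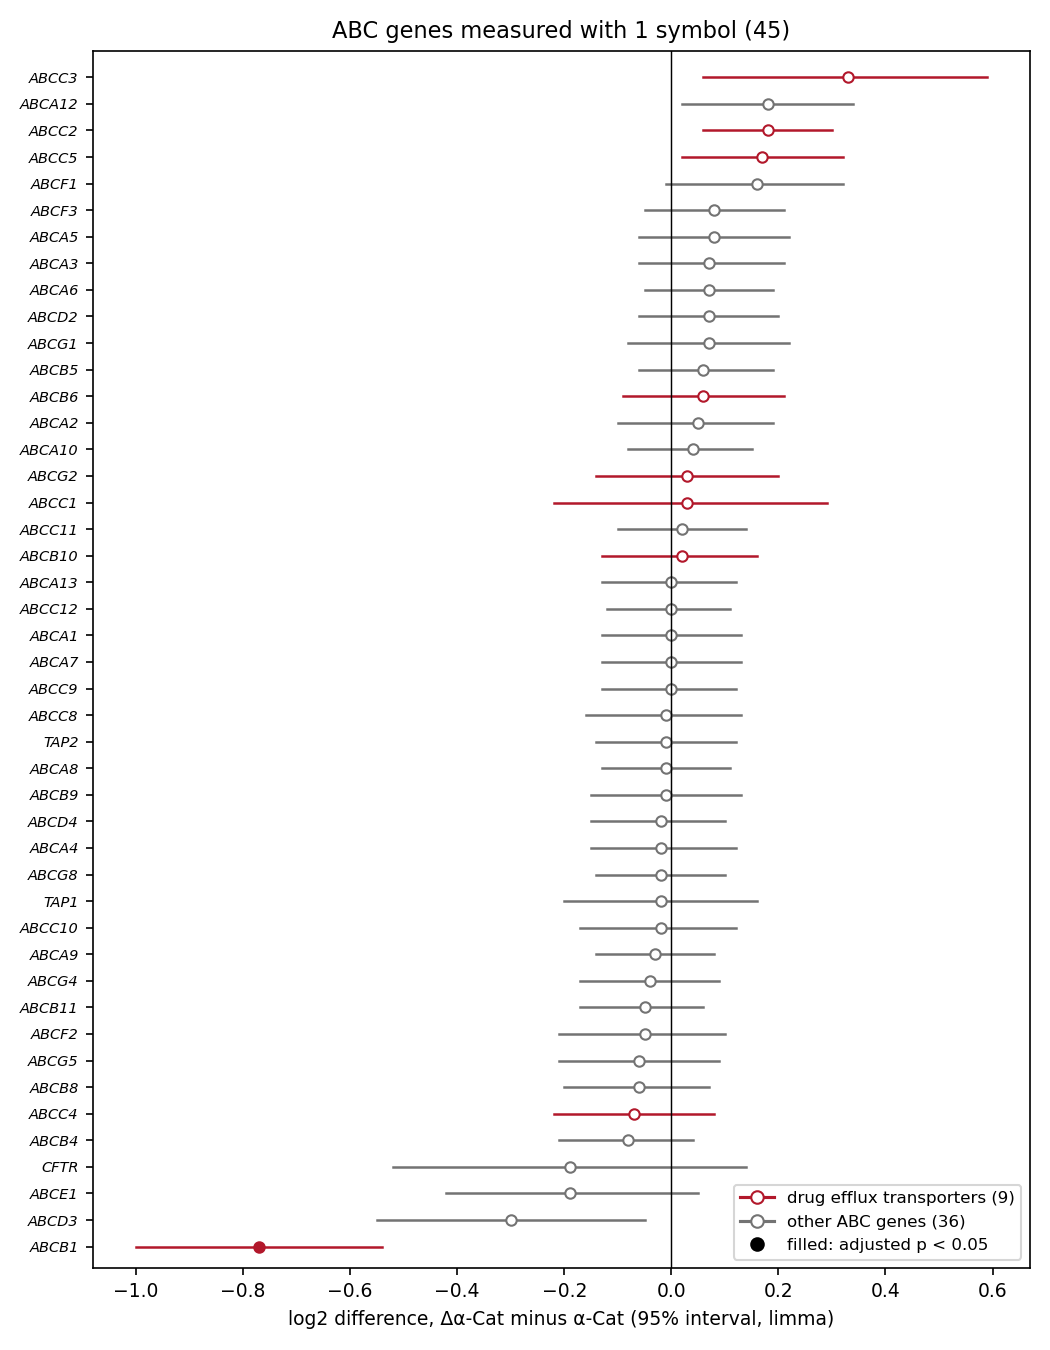
Log2 difference, Δα-Cat minus α-Cat, with 95% limma intervals (horizontal axis) for the 9 drug efflux transporters (red) and 36 other ABC genes (grey), ordered by difference; a filled point passed the adjusted threshold. ABCB1 at -0.77 is the filled point, and the other 44 lie between -0.30 and 0.33.

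The genes beside ABCB1 on chromosome 7 were compared with it because ABCB1 was called. Next to it is ABCB4, its closest relative there and a phospholipid floppase of bile canaliculi. ABCB4 read 3.15, 3.10 and 3.07 on the Δα-Cat arrays and 3.21, 3.16 and 3.19 on the α-Cat arrays, with a log2 difference of -0.08 (95% interval -0.21 to 0.04, limma adjusted p = 0.703). RUNDC3B, which overlaps ABCB1 in the RefSeq annotation, differed by -0.02 (95% interval -0.13 to 0.10). CROT, beyond ABCB4, differed by 0.04, and all 3 of these genes lay below 4.45 in both groups. On the other side, beyond RUNDC3B, the values were, as for ABCB4, lower on every Δα-Cat array without passing the test. Over all genes, 10% have groups that do not overlap with Δα-Cat lower. SLC25A40, a mitochondrial carrier, read 5.62, 5.66 and 5.63 on the Δα-Cat arrays and 6.08, 5.97 and 5.88 on the α-Cat arrays (log2 difference -0.34, SE 0.07, limma adjusted p = 0.122). DBF4, a regulator of the replication kinase CDC7, read 6.22, 5.99 and 5.96 on the Δα-Cat arrays and 6.64, 6.24 and 6.33 on the α-Cat arrays (log2 difference -0.35, SE 0.12, limma adjusted p = 0.398).

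**Figure D4:**
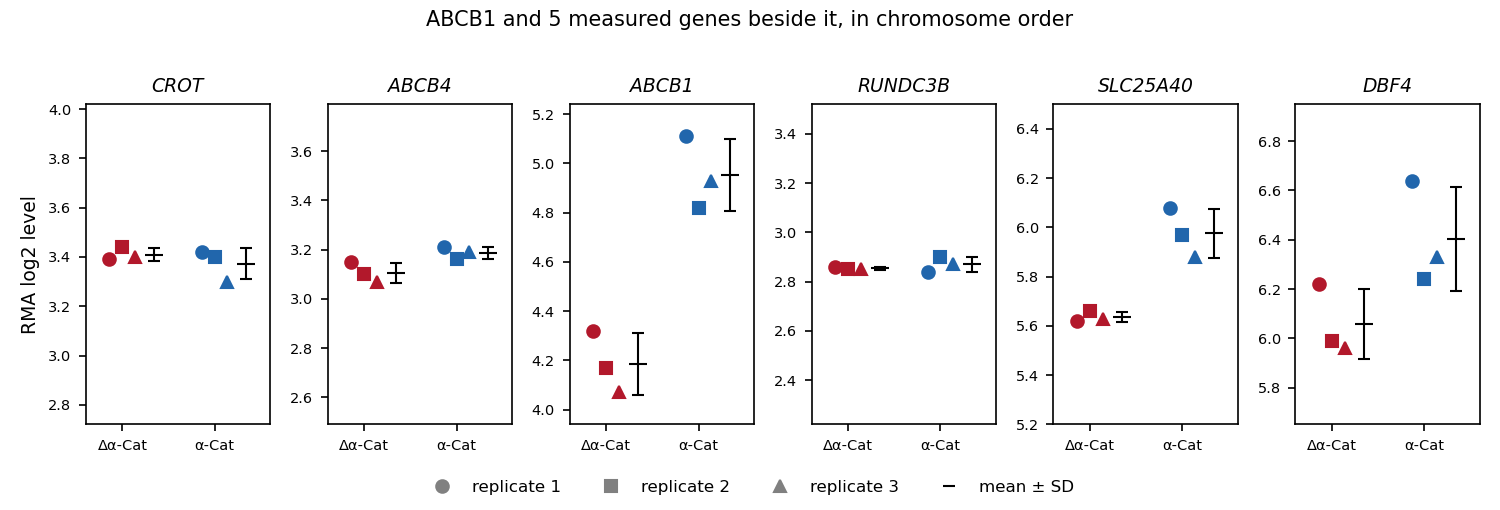
RMA log2 level (vertical axis, 1.3 log2 units in every panel) of ABCB1 and 5 measured genes beside it in chromosome order, on the Δα-Cat (red) and α-Cat (blue) arrays with mean ± SD in black. ABCB4, SLC25A40 and DBF4 are lower on every Δα-Cat array, by 0.08, 0.34 and 0.35 on average, without passing the test. Of all genes, 10% have such groups.

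Likeness to ABCB1 over the 6 arrays was measured as the root mean square difference of log2 values after each gene's own mean was subtracted, over 17025 protein-coding genes. The nearest 5 were CTSC (0.075), HSPA4L (0.077), HMMR (0.085), ACAT1 (0.090) and BIK (0.097). CTSC, a lysosomal cysteine protease, read 5.83, 5.69 and 5.54 on the Δα-Cat arrays and 6.42, 6.36 and 6.35 on the α-Cat arrays. HSPA4L, a chaperone, read 5.07, 4.91 and 4.87 on the Δα-Cat arrays and 5.73, 5.41 and 5.57 on the α-Cat arrays. Like ABCB1, CTSC, HSPA4L, HMMR and BIK were highest within each group on replicate 1. ACAT1 was so in Δα-Cat but not in α-Cat. With 6 arrays, this likeness is mainly the shared gap between the groups, and it describes these arrays only.

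Solute carriers for drugs were examined because many of them, though not all, bring into cells compounds that the efflux pumps export. Of 30 solute carriers listed, 26 were measured and 0 were called by limma. At an unadjusted p under 0.05, a mark that 13.1% of all genes met, 3 were higher and 1 lower. SLCO1B3, an organic anion carrier, read 6.59, 6.81 and 6.61 on the Δα-Cat arrays and 6.10, 5.92 and 5.60 on the α-Cat arrays. The groups lay apart, with a log2 difference of 0.79 (SE 0.13, 95% interval 0.49 to 1.10, limma adjusted p = 0.0804). Its close paralogue SLCO1B1 read 3.43, 3.63 and 3.64 on the Δα-Cat arrays and 3.01, 2.89 and 2.63 on the α-Cat arrays, below 4.45 throughout (log2 difference 0.72, SE 0.11, limma adjusted p = 0.0659). The sequences are alike, so signal of one in the other's cluster was not tested. In the fit over single-symbol clusters only, both passed (adjusted p = 0.0253 for SLCO1B3 and 0.0206 for SLCO1B1), and in that fit 2.94% of all genes were called.

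Among 26 transcriptional regulators of efflux genes, 21 were measured and 0 were called by limma. At an unadjusted p under 0.05, a mark that 13.1% of all genes met, 3 were higher and 1 lower. NR1I2 (PXR), the best known inducer of ABCB1, had no usable single-symbol cluster and was not analysed here. AHR, the receptor for aryl hydrocarbons, read 9.20, 9.51 and 9.25 on the Δα-Cat arrays and 8.90, 8.76 and 8.79 on the α-Cat arrays, which did not overlap (log2 difference 0.50, SE 0.09, limma adjusted p = 0.11, and 0.036 over single-symbol clusters only). KEAP1, the inhibitor of NRF2, had a log2 difference of 0.19 (SE 0.06, limma adjusted p = 0.354).

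Of 45 drug-metabolising and glutathione genes, 36 were measured and 0 were called by limma. At an unadjusted p under 0.05, a mark that 13.1% of all genes met, 4 were higher and 5 lower. GCLC, the catalytic subunit of glutathione synthesis, read 5.47, 5.43 and 5.41 on the Δα-Cat arrays and 5.78, 5.66 and 5.77 on the α-Cat arrays (log2 difference -0.30, SE 0.06, limma adjusted p = 0.117). CYP1B1, an AHR-induced oxidase, read 7.38, 7.47 and 7.64 on the Δα-Cat arrays and 7.08, 7.16 and 7.03 on the α-Cat arrays (log2 difference 0.41, SE 0.08, limma adjusted p = 0.132). A second, lower-level CYP1B1 cluster, not the one counted, was called higher (log2 difference 0.58, SE 0.07, limma adjusted p = 0.0379). The fit over single-symbol clusters only called 2.94% of all genes. In that fit, CYP1B1 was called higher, and GCLC and CYP2S1 were called lower (adjusted p = 0.0414, 0.0281 and 0.0404). CYP2S1, named after its values were seen, had a log2 difference of -0.27.

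The genes of heme and iron-sulfur synthesis, which belong to the setting of ABCB6 and ABCB10, were measured for 21 of 24, and 0 were called by limma. At an unadjusted p under 0.05, a mark that 13.1% of all genes met, 3 were higher and 2 lower. ALAS1, the first enzyme of heme synthesis, read 7.84, 7.81 and 7.85 on the Δα-Cat arrays and 8.24, 8.13 and 8.32 on the α-Cat arrays. The groups lay apart, with a log2 difference of -0.40 (SE 0.06, limma adjusted p = 0.0758). FLVCR1, described as a heme exporter, had a log2 difference of -0.39 (SE 0.08, limma adjusted p = 0.144). Over single-symbol clusters only, both were called lower (adjusted p = 0.019 for ALAS1 and 0.0453 for FLVCR1), while ABCB6 and ABCB10 were not. That fit called 2.94% of all genes.

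Among 20 genes for scaffolds and trafficking of membrane proteins, 17 were measured and 0 were called by limma. At an unadjusted p under 0.05, a mark that 13.1% of all genes met, 3 were higher and 1 lower. RAB11A, a small GTPase of recycling endosomes, read 9.22, 9.29 and 9.20 on the Δα-Cat arrays and 8.97, 8.82 and 8.84 on the α-Cat arrays (log2 difference 0.36, SE 0.06, limma adjusted p = 0.0907, and 0.0236 over single-symbol clusters only). MVP, the major vault protein, also known as lung resistance-related protein, had a log2 difference of 0.37 (SE 0.09, limma adjusted p = 0.225). The medians of the last 5 lists lay between -0.031 and 0.06.

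**Figure D5:**
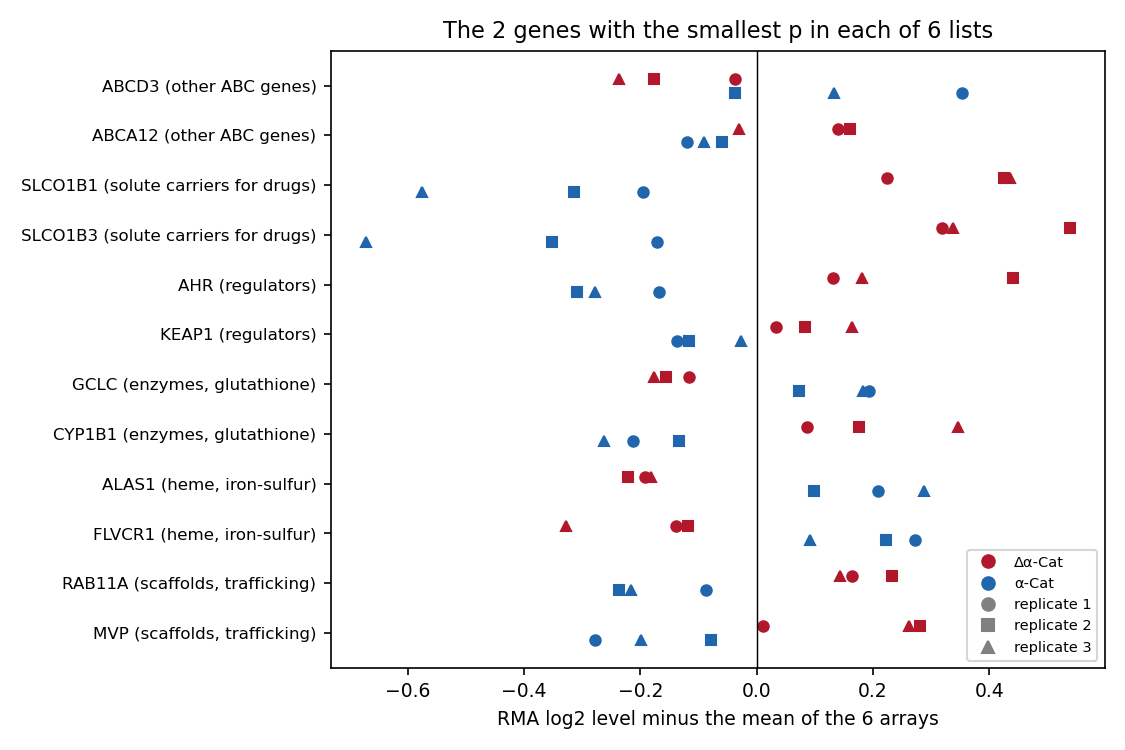
RMA log2 level minus the gene's mean over 6 arrays (horizontal axis) for the 2 genes with the smallest p in each of 6 lists, on the Δα-Cat (red) and α-Cat (blue) arrays, with replicates 1 to 3 as circle, square and triangle. These genes were chosen for their small p; all 12 have Δα-Cat arrays on one side of the α-Cat arrays, and 0 passed the adjusted threshold over all clusters.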

How the data were processed

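Total RNA was hybridised to 6 Affymetrix arrays. Per the submitters' processing notes, the authors used Affymetrix Expression Console and RMA; in the sources used here their versions and settings are not given. The deposited score of each cluster was read as log2, since RMA gives log2 values and the usable rows lay between 1.26 and 14.24 with array medians from 4.02 to 4.07. Of 70513 rows, 4987 held a value without a decimal point and were left out, 1249 of them with a gene symbol. A second table was not used: its 6 value columns carry names that fit none of the labels. The number of arrays limits the precision.

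Names came from the platform annotation, updated by gene ID to RefSeq (GRCh38.p14) for 20236 of 22376 genes; where a gene had several single-symbol clusters, that of the highest mean stands for it. Groups were taken from the sample titles and fitted with limma 3.58.1 in R 4.3.3 (lmFit, eBayes, no covariate), with Benjamini-Hochberg adjustment over 65526 clusters and calls at an adjusted p under 0.05. The fit was tested on simulated data. Tables and plots used Python 3.11.15, numpy 2.4.6, pandas 2.3.3 and matplotlib 3.10.9. The 7 lists, that of the members among them, were chosen with earlier results of these data known. The text names all 9 members, CTNNA1, the 2 genes with the smallest p in each list without a call, the 3 measured genes on each side of a called member and the 5 genes nearest to it in pattern; exceptions are stated, and 1 of these neighbours is not reported here.

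After group means were subtracted, same-numbered arrays of the 2 groups correlated at 0.219, 0.214 and 0.128 and differently numbered ones below 0. Once the same-numbered values are positive, that subtraction makes the others negative on balance, so the others add no support. The meaning of the numbers is not given in the labels, so the pairing rests on the same-numbered correlations alone, and a fit with the replicate block is given as an alternative. Other alternatives were cyclic loess, median centring, trended and robust eBayes, single-symbol clusters only, filters on dim clusters, array weights for single genes, and leaving out each array.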

Additional observations from a re-analysis of the deposited data

How the results depend on the processing

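With 8 other settings on all 6 arrays the ABCB1 log2 difference stayed between -0.79 and -0.76 with an adjusted p from 0.0119 to 0.0497. One of them, the filter at the olfactory percentile (adjusted p = 0.0202), keeps ABCB1 only through its α-Cat arrays, so the call there is no support. CTNNA1 stayed called in all 14 alternatives. The replicate block gave ABCB1 -0.77 (adjusted p = 0.0315) and changed no call among the members or lists. Without 1 array each, ABCB1 ranged from -0.83 to -0.69 and was not called, so the members called were 0 in each of the 6 fits. Clusters called then ranged from 29 to 120 and genes from 21 to 80, against 224 and 140 with all arrays. Fits on fewer clusters called more: 662 clusters and 658 genes over single-symbol clusters, 458 and 302 above the median cluster, and 482 and 315 above the olfactory percentile. The genes called were 2.94%, 1.9% and 2.14% of the genes in each fit. In these 3 fits, in that order, solute carriers had 2, 1 and 1 calls, heme genes 2, 1 and 1, and scaffold genes 1, 1 and 1. Regulators had 1 and drug-metabolising genes 3 over single-symbol clusters. Leaving out 1 array turned the sign of members without a call 5 times, over 4 fits: ABCC1 (-0.06 and -0.05, range -0.06 to 0.09), ABCG2 (-0.03, range -0.03 to 0.09) and ABCB10 (-0.02 in 2 fits, range -0.02 to 0.05). The cause was not tested. Averaging the clusters of a gene was not run, since each member has 1. Signal at or below that of olfactory genes limits ABCC2, ABCG2 and the Δα-Cat side of ABCB1. ABCB6 lay only little above the olfactory percentile in both groups.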

Other observations

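Among markers of cells other than colon epithelium, SERPINA1, the gene of α1-antitrypsin, which liver makes most and intestinal epithelium also makes, rose in Δα-Cat cells. It read 7.01, 7.37 and 7.18 on the Δα-Cat arrays and 6.31, 6.39 and 6.30 on the α-Cat arrays (log2 difference 0.85, SE 0.09, limma adjusted p = 0.0268). It was named after its values were seen, and the other 8 measured markers of liver and kidney did not pass. The 12 colorectal epithelial markers went both ways, and 0 were called by limma over all clusters. At an unadjusted p under 0.05, a mark that 13.1% of all genes met, 5 were higher and 1 lower. The log2 differences, 7 positive and 5 negative, ran from -0.14 to 0.72. Over single-symbol clusters only, 2 of the 12 were called higher, CDH17, the intestinal liver cadherin, and TJP1, a tight junction scaffold (log2 differences 0.72 and 0.24, adjusted p = 0.0355 and 0.045). In that fit, which called 2.94% of all genes, CD14 was called lower (-0.64, adjusted p = 0.0409) as 1 of 10 leukocyte markers. These 3 genes were also named after their values were seen.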
